A study of Mus musculus with 10 samples.

Results

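The 53 genes described here encode proteins of DNA replication and of the repair that accompanies it: origin licensing, the replication fork, nucleotide supply, and homologous or mismatch repair. They are a list of mouse gene symbols chosen by function, and all 53 were found among the 24538 genes counted. Libraries were made from CD31+/CD45- cells of lung metastases (n = 5) and of normal lung (n = 5). The metastases grew from E0771-LG, a line of mouse mammary tumour cells, injected into the tail vein of syngeneic C57BL6/J females aged 6 to 8 weeks. Metastases smaller than 1 mm were dissected and pooled from 2 to 4 mice, while normal lungs were handled in parallel. All samples carry the genotype label wild type and an age of 8 to 10 weeks, and alpha-amanitin and actinomycin D, inhibitors of transcription, were in the digestion buffer of both groups. CD31 is a surface protein of endothelial cells and CD45 one of leukocytes, so the gate was meant to enrich endothelial cells. The tumour cell line is itself a dividing cell, and no label states that tumour cells were counted in or removed from the gate by a marker of their own. The labels do not say that the replicates of normal lung came from separate mice, so p-values measure the spread between these samples, which may in part be technical.

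Counts assigned to genes ranged over 21.7 to 54.3 M in metastasis libraries and over 41.0 to 79.7 M in normal lung libraries (M, 1000000 counts). The 53 genes took 0.171 to 0.353% of those counts in metastases and 0.0429 to 0.0598% in normal lung. Levels are given as CPM, counts per 1000000 on libraries scaled by the TMM method, and compare libraries for 1 gene, while FPKM, which divides by transcript length, is used to compare genes. Pecam1, the gene of CD31, averaged 644 ± 508 CPM in metastases and 2415 ± 864 CPM in normal lung (SD, n = 5 each; log2 fold change -1.91, edgeR adjusted p = 0.00549), and this difference was 0.07 after scaling to the pan-endothelial genes, of which Pecam1 is one. Ptprc, the gene of CD45, averaged 121 ± 25.6 CPM in metastases and 17.8 ± 7.31 CPM in normal lung (2.77, edgeR adjusted p = 0.0012).

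A dividing cell first licenses its origins: the origin recognition complex, with CDC6 and CDT1, loads the MCM ring, which CDC45 and the GINS proteins later turn into the active helicase. DNA polymerases alpha, delta and epsilon then copy the strands, aided by the PCNA clamp, its RFC loader and the single-strand binding protein RPA, while ribonucleotide reductase and other enzymes supply the nucleotides. E2F transcription factors switch on many of these genes as a cell commits to S phase, and most lung endothelial cells of a healthy adult mouse are quiescent.

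Many of the replication genes had higher levels in the metastasis libraries, and none had a lower level that passed the test. Of the 50 members that passed the filter on low counts, 25 rose and 0 fell in metastases by the edgeR quasi-likelihood test (adjusted p below 0.05), where 12.0% of all 11823 tested genes rose and 8.22% fell. These shares are also the background for the counts of each role group and each other gene list below. The log2 fold changes of the tested members had a median of 2.50 and ran from -0.86 for Rpa1 to 6.65 for Cdt1 and Exo1, while the median over all tested genes was 0.06. In 19 members every metastasis library was above every normal lung library, against 8.50% of all tested genes. The filter can pass a gene through the metastasis libraries alone, so these counts describe the tested members and are no support by themselves. In bulk RNA, fewer cells of a type and less RNA per cell cannot be told apart.

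**Figure D1:**
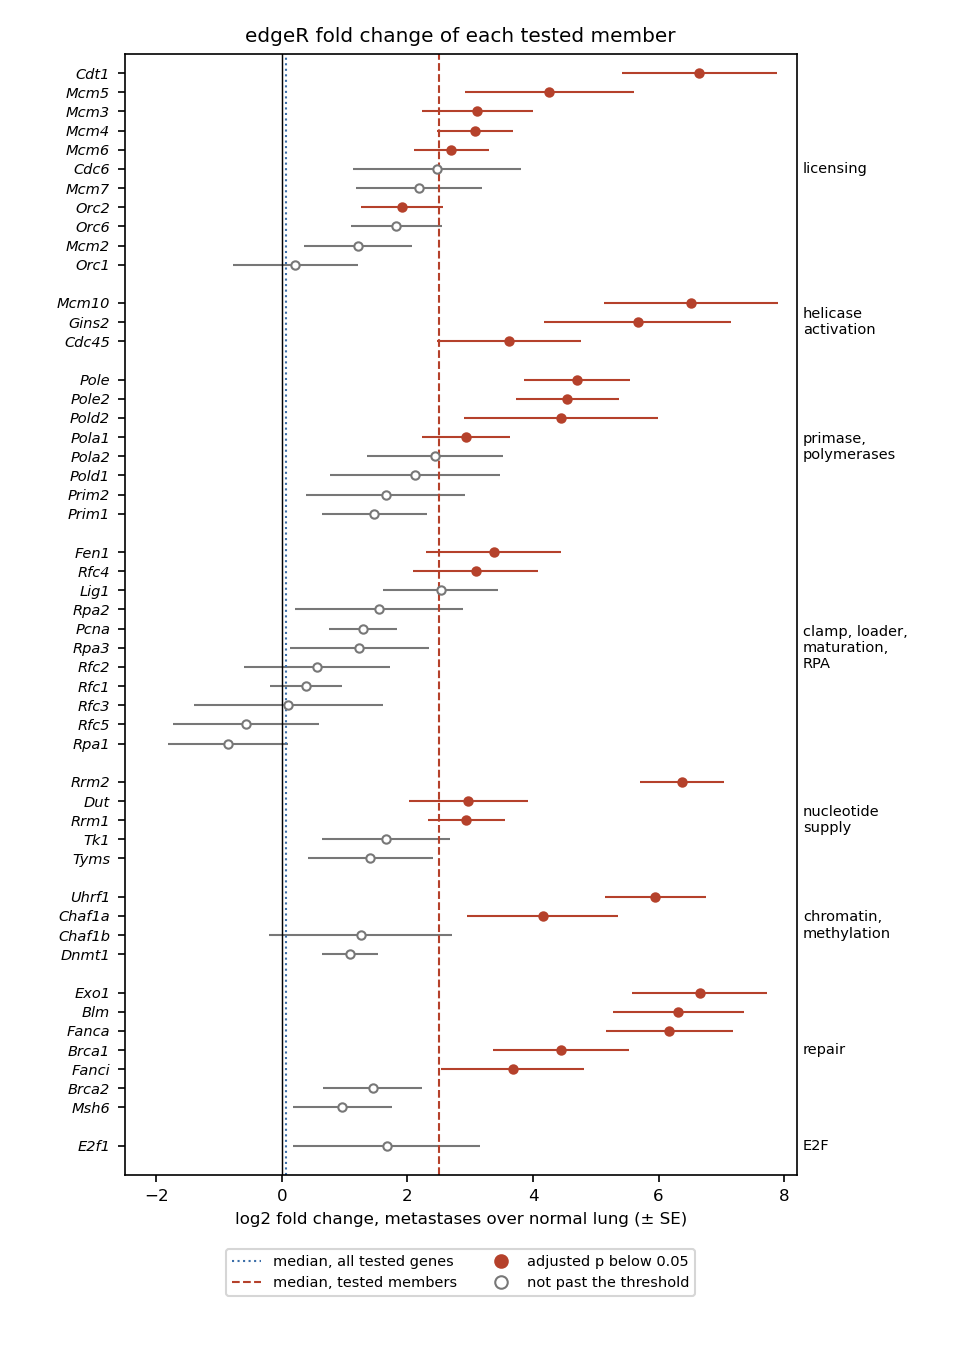
Log2 fold change (x axis, metastases over normal lung, ± SE) of each of the 50 tested members, grouped by role (y axis); filled points passed the edgeR threshold and open points did not. The members' median of 2.50 lies to the right of the median of all tested genes at 0.06. Rfc5 and Rpa1 are the 2 members left of 0. Of 24 alternative settings, 5 put Rfc5 and 4 put Rpa1 above 0, scaling to pan-endothelial genes among them.

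The size of these changes is relative to the bulk of genes. Of all tested genes 1420 rose and 972 fell, so that 59.4% of the calls were higher. After scaling to pan-endothelial genes 6542 rose and 21 fell (99.7% higher), the median of all tested genes moved to 2.63, that of the members moved to 5.42, and 47 members rose. With replicates 1 and 2 alone 3 of 52 tested members rose (Rrm2, Uhrf1 and Chaf1a). Of all 12576 genes tested there 487 rose, so this count does not set the members apart. With replicates 3 to 5 alone 20 of 51 members rose, where 1108 of all 11933 genes did. Metastasis replicates 4 and 5 had the least endothelial signal. Without both, 15 of 51 members rose, where 1137 of all 12519 genes did. With 1 library left out at a time 19 to 26 members rose, where 1302 to 1440 of all tested genes did.

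**Figure D2:**
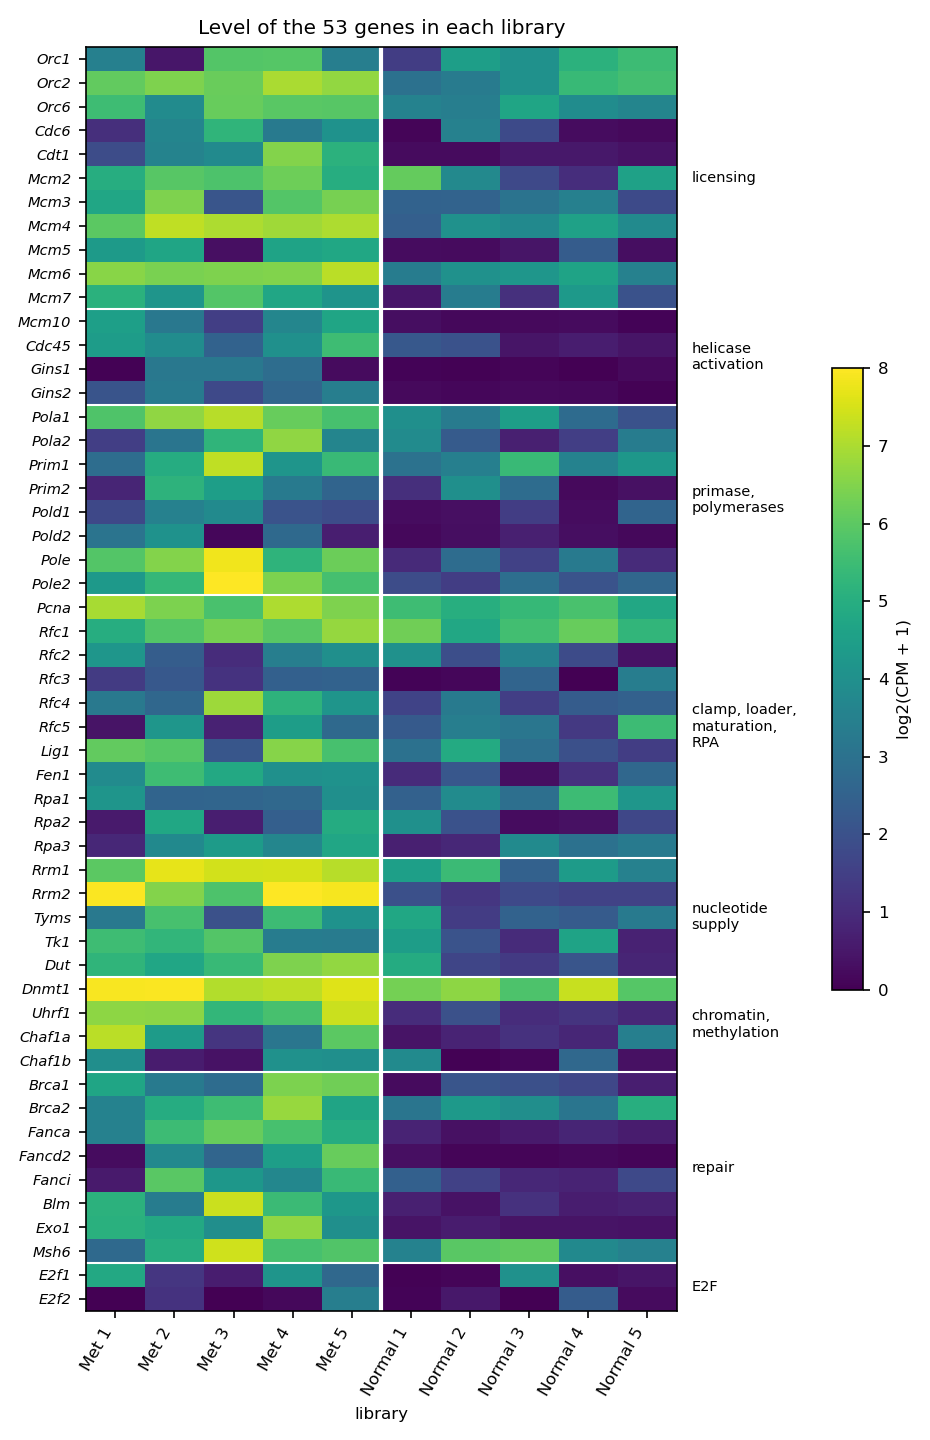
Level of the 53 genes (rows, grouped by role) in each library (columns, metastases left of the white line and normal lung right of it) as log2(CPM + 1). The colour scale runs from the lowest to the highest value drawn. Rrm2, Uhrf1, Mcm4 and Mcm6 are bright in all 5 metastasis libraries, while genes such as Mcm5, Pold2 and Rpa2 are bright in some metastasis libraries and dark in others.

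Promoter sequence was examined for the E2F motif, the site of the factors that switch on S-phase genes. The RefSeq table (GRCm38.p6) held promoters, from 250 bases before to 50 bases after a start, for 45 of the 53 genes. An E2F octamer (TTTCCCGC, TTTCGCGC, TTTGCCGC or TTTGGCGC, on either strand) was found in 17 of these 45 genes (37.8%, 95% Wilson interval 25.1 to 52.4%), where 2.60% of the 27025 genes in the table had one. The 6 stretches printed here lie before a RefSeq start and show how the octamer recurs in genes that rose and in genes that did not pass the test; they are written 5′ to 3′ along the gene's strand, with the matched letters in capitals, which in Mcm5 and the first Mcm6 stretch are a pair of octamers that overlap.
Mcm5, chr8:75109330-75109389, plus strand, log2 fold change 4.26, rose: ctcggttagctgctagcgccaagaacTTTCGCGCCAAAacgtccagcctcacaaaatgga
Mcm6, chr1:128359782-128359841, minus strand, log2 fold change 2.70, rose: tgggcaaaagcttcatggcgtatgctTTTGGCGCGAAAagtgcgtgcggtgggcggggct
Mcm6, chr1:128359719-128359778, minus strand, nearer to the start: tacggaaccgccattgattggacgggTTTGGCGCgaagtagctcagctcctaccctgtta
Uhrf1, chr17:56304102-56304161, plus strand, log2 fold change 5.95, rose: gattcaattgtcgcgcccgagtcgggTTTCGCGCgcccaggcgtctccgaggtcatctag
Cdc6, chr11:98907987-98908046, plus strand, log2 fold change 2.47, not past the threshold: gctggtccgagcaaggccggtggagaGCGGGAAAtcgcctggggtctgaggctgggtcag
Brca2, chr5:150522427-150522486, plus strand, log2 fold change 1.45, not past the threshold: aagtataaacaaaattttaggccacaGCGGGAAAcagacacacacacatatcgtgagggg

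Having the octamer did not separate the members that rose from the others. Of the 16 tested members with an octamer, 7 rose and the median log2 fold change was 2.50; of the 28 tested members with a promoter but no octamer, 14 rose and the median was 2.18. Rrm2, Mcm10 and Fanca had no octamer in the window and log2 fold changes of 6.38, 6.51 and 6.17. Absence of these letters from the window says nothing of a factor's binding. In a window from 150 bases before the start to the start itself, 13.3% of the members and 1.44% of all genes held the octamer. Other motifs were searched on both strands too: CCAAT was in 64.4% of the members and 41.1% of all genes, the GC box (GGGCGG) in 75.6% of the members and 38.2% of all genes, and the CHR element (TTTGAA), known from promoters of mitosis genes, in 13.3% of the members and 20.2% of all genes. The GC box and the E2F octamer are both rich in G and C, and a match is a description of letters, not of a bound site.

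Of the 11 licensing genes, 6 rose. Cdt1, the loader of MCM rings that is destroyed once S phase begins, had the largest change: 2.61, 10.9, 13.2, 91.6 and 34.0 CPM in metastasis replicates 1 to 5, against 0.168, 0.179, 0.424, 0.443 and 0.297 CPM in normal lung replicates 1 to 5 (log2 fold change 6.65 ± 1.23 SE, edgeR adjusted p = 0.000469). The groups did not overlap, yet the metastasis libraries spread widely, and without metastasis replicate 4 the log2 fold change was 5.63. Cdt1 lies on chromosome 8 at 122568015 to 122573130 of GRCm38, and counts cover its exons as a whole.

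The 6 MCM genes encode the subunits of the helicase ring, and 4 of them rose. Mcm4 had the highest mean in metastases, with 62.2, 149, 128, 114 and 130 CPM in metastasis replicates 1 to 5, against 4.39, 15.7, 12.9, 22.9 and 13.3 CPM in normal lung (log2 fold change 3.08 ± 0.61 SE, edgeR adjusted p = 0.00087). Mcm6 averaged 99.9 ± 25.5 CPM in metastases and 15.4 ± 5.98 CPM in normal lung (SD, n = 5 each; 2.70, edgeR adjusted p = 0.00215). For both genes the lowest metastasis library lay well above the highest normal library. Mcm3 and Mcm5 rose by log2 fold changes of 3.11 and 4.26, but metastasis replicate 3 held only 3.28 CPM of Mcm3 and 0.248 CPM of Mcm5, inside the normal range of each. The Mcm5 change was 6.25 without normal lung replicate 4, and its call was lost without metastasis replicate 5 or any of normal lung replicates 1, 2, 3 and 5 (edgeR adjusted p 0.0553 to 0.0616). Since MCM2 to MCM7 join in a ring with 1 copy of each, their levels can be set side by side per length. In FPKM, Mcm6 averaged 38.0 ± 8.71 in metastases and 5.83 ± 3.04 in normal lung, Mcm4 28.6 ± 7.55 in metastases and 3.65 ± 1.66 in normal lung, and Mcm5 6.90 ± 3.84 in metastases and 0.464 ± 0.752 in normal lung (SD, n = 5 each). Mcm5 thus had the lowest level of the 6 ring genes in both groups on this scale.

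**Figure D3:**
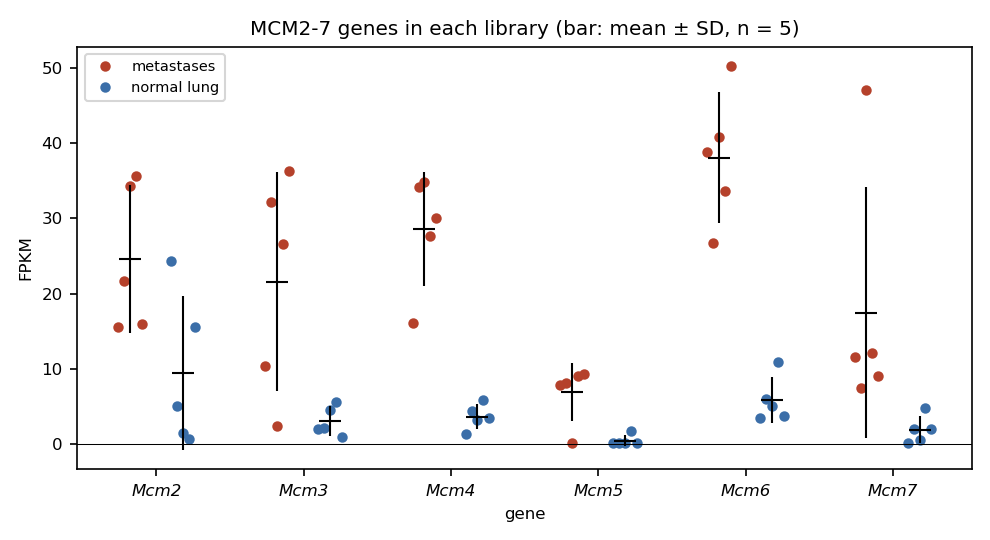
FPKM (y axis) of the 6 MCM ring genes (x axis) in the 5 metastasis libraries, drawn left, and the 5 normal lung libraries, drawn right; bars give mean ± SD. For Mcm4, Mcm6 and Mcm7 all metastasis points lie above all normal lung points, whereas for Mcm2, Mcm3 and Mcm5 some metastasis points lie within the normal range.

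Mcm2 and Mcm7, the remaining ring genes, did not pass the test. Mcm2 had 30.5, 60.4, 53.1, 74.3 and 30.8 CPM in metastasis replicates 1 to 5, against 68.2, 12.5, 2.38, 1.07 and 23.1 CPM in normal lung (log2 fold change 1.21, edgeR adjusted p = 0.363). Normal lung replicate 1 exceeded all metastasis libraries but replicate 4. Mcm7 had 33.5, 17.2, 57.3, 25.5 and 16.5 CPM in metastases, against 0.413, 9.23, 1.18, 19.1 and 3.08 CPM in normal lung (2.19, edgeR adjusted p = 0.132). Normal lung replicate 4 lay above metastasis replicates 2 and 5, and exons of Mcm7 overlap those of Ap4m1 and Cops6 on the other strand, so its counts are uncertain. In the authors' FPKM its groups did not overlap (2.55 on the log2(FPKM + 1) scale, limma adjusted p = 0.0102).

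Of the origin recognition complex, which marks the origins, Orc2 rose and Orc1 and Orc6 did not pass the test. Orc2 averaged 90.8 ± 24.4 CPM in metastases and 24.1 ± 19.1 CPM in normal lung (SD, n = 5 each; log2 fold change 1.91, edgeR adjusted p = 0.0386), with no overlap. Its call was lost without metastasis replicate 2, 4 or 5 or normal lung replicate 1, 2 or 3 (edgeR adjusted p 0.0580 or more). Orc1, the subunit known to cycle with the cell in mammals, had 10.3, 0.413, 57.4, 58.9 and 9.62 CPM in metastases, against 1.71, 21.4, 15.7, 34.5 and 44.2 CPM in normal lung (0.22, edgeR adjusted p = 0.911). Both groups held high and low libraries of Orc1, and the groups overlapped almost entirely. Orc6 had 44.4, 13.6, 70.5, 61.6 and 60.4 CPM in metastases, against 10.6, 9.69, 25.4, 13.8 and 11.4 CPM in normal lung (1.82, edgeR adjusted p = 0.0807). Only metastasis replicate 2 of Orc6 lay within the normal range, and without that library the adjusted p was 0.0448. Cdc6, the partner of CDT1 in loading, had 1.12, 11.4, 37.0, 8.71 and 15.9 CPM in metastases, against 0.0766, 10.4, 2.49, 0.209 and 0.162 CPM in normal lung (2.47, edgeR adjusted p = 0.213). Normal lung replicate 2 lay above metastasis replicates 1 and 4 and normal lung replicate 3 above metastasis replicate 1. Without normal lung replicate 2 the log2 fold change was 4.30 (edgeR adjusted p = 0.0496). In the authors' FPKM normal lung replicate 2 held 0.337 of Cdc6, below every metastasis library but replicate 1 at 0.152. The FPKM means were 3.47 ± 3.84 in metastases and 0.112 ± 0.133 in normal lung (SD, n = 5 each).

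The genes that turn a loaded MCM ring into a running helicase were low in normal lung, and all 3 tested ones rose. Mcm10, which helps start unwinding, had 21.7, 8.31, 1.79, 11.9 and 25.3 CPM in metastasis replicates 1 to 5, against 0.230, 0.131, 0.141, 0.183 and 0.0540 CPM in normal lung (log2 fold change 6.51 ± 1.39 SE, edgeR adjusted p = 0.00162). Gins2 averaged 5.84 ± 3.23 CPM in metastases and 0.112 ± 0.0503 CPM in normal lung (SD, n = 5 each; 5.67, edgeR adjusted p = 0.00847). Neither gene had a normal library near the lowest metastasis library. Cdc45, the group's member of highest mean CPM in metastases, had 20.4, 13.8, 4.76, 15.3 and 45.0 CPM there, against 3.64, 3.08, 0.376, 0.574 and 0.378 CPM in normal lung (3.62, edgeR adjusted p = 0.0270). Normal lung replicates 1 and 2 came close to metastasis replicate 3, and the call was lost without metastasis replicate 5 or normal lung replicate 3, 4 or 5 (edgeR adjusted p 0.0638 to 0.103). Gins1 did not pass the filter: it had 0.0338, 8.25, 8.14, 6.21 and 0.176 CPM in metastases, against 0.0612, 0.0239, 0.0706, 0 and 0.162 CPM in normal lung. Metastasis replicates 2, 3 and 4 thus held it clearly, and replicates 1 and 5 at the normal level. With every counted gene tested, the log2 fold change of Gins1 was 6.05 (edgeR adjusted p = 0.0291).

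Among the polymerases, both listed subunits of polymerase epsilon, the leading-strand enzyme, and the catalytic subunit of polymerase alpha rose. Pole, the catalytic subunit of epsilon, had 57.6, 90.0, 227, 36.1 and 72.3 CPM in metastasis replicates 1 to 5, against 0.919, 6.17, 1.91, 8.55 and 0.972 CPM in normal lung (log2 fold change 4.70 ± 0.84 SE, edgeR adjusted p = 0.000336). Pole2 averaged 89.6 ± 96.1 CPM in metastases and 3.84 ± 1.95 CPM in normal lung (SD, n = 5 each; 4.54, edgeR adjusted p = 0.000367). Exons of Pole2 overlap those of Gm49384, a protein-coding gene on the same strand. Both subunits peaked in metastasis replicate 3, with 256 CPM for Pole2, and without that library the log2 fold changes were 4.07 and 3.61, both still past the threshold. Pola1 averaged 83.1 ± 37.8 CPM in metastases and 10.8 ± 7.33 CPM in normal lung (SD, n = 5 each; 2.94, edgeR adjusted p = 0.00411), without overlap.

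Polymerase delta and primase gave less even values. Pold2, an accessory subunit of polymerase delta, had 7.45, 15.9, 0.0992, 5.60 and 0.599 CPM in metastases, against 0.138, 0.227, 0.612, 0.235 and 0.135 CPM in normal lung (4.45, edgeR adjusted p = 0.0434). Metastasis replicate 3, which held 2 counts, lay below every normal lung library, and metastasis replicate 5 lay within the normal range. The call was lost in 8 of the 10 fits that left out 1 library, all but those without metastasis replicate 3 or 5 (edgeR adjusted p 0.0572 to 0.103). Pold1, the catalytic subunit, had 2.34, 10.6, 13.3, 3.16 and 2.64 CPM in metastases, against 0.214, 0.251, 1.76, 0.209 and 4.94 CPM in normal lung (2.12, edgeR adjusted p = 0.304). Normal lung replicate 5 exceeded 3 of the metastasis libraries. Pola2, the second subunit of polymerase alpha, had 1.83, 7.57, 36.4, 101 and 11.5 CPM in metastases, against 13.5, 3.94, 0.635, 1.77 and 9.18 CPM in normal lung (2.44, edgeR adjusted p = 0.119). The primase genes, whose products lay the RNA primers, also overlapped. Prim1 had 6.26, 29.9, 150, 17.2 and 41.6 CPM in metastases, against 7.01, 10.0, 42.4, 10.8 and 18 CPM in normal lung (1.47, edgeR adjusted p = 0.240). Prim2 had 0.778, 35.2, 21.4, 8.74 and 5.04 CPM in metastases, against 1.10, 14.9, 6.09, 0.156 and 0.270 CPM in normal lung (1.66, edgeR adjusted p = 0.402). In both primase genes metastasis replicate 1 was the lowest of its group, at the level of the low normal libraries.

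Among the sliding clamp, its loader, the enzymes that join lagging-strand fragments and the single-strand binding proteins, 2 of 11 genes rose. Of all tested genes 12.0% rose, so this count does not set the group apart. Its median log2 fold change was 1.24. Fen1, the nuclease that trims the flaps of lagging-strand fragments, had 13.6, 44.7, 27.7, 15.1 and 15.9 CPM in metastasis replicates 1 to 5, against 0.980, 3.51, 0.235, 1.20 and 5.37 CPM in normal lung (3.37 ± 1.07 SE, edgeR adjusted p = 0.0268). The groups did not overlap, but the call was lost without metastasis replicate 2 or normal lung replicate 1, 3 or 4 (edgeR adjusted p 0.0599 to 0.0690). Rfc4, a small subunit of the clamp loader, averaged 35.9 ± 44.7 CPM in metastases and 4.22 ± 2.75 CPM in normal lung (SD, n = 5 each; 3.08, edgeR adjusted p = 0.0295). The mean of Rfc4 in metastases rested on 113 CPM in replicate 3, a library with only 5.49 FPKM of the gene in the authors' table against 19 FPKM in replicate 4, where counts gave 35.4 CPM. Its exons overlap Eif4a2 on the other strand, and the call was lost without metastasis replicate 3 or normal lung replicate 1, 3, 4 or 5 (edgeR adjusted p 0.0552 to 0.206).

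Pcna, the clamp that holds polymerases on DNA, was abundant in both groups. It had 124, 84.1, 51.5, 128 and 87.4 CPM in metastases, against 44.7, 31.3, 39.7, 51.0 and 26.8 CPM in normal lung, and the groups did not overlap, although by a margin of less than 1 CPM. The log2 fold change of 1.29 ± 0.54 SE missed the threshold (edgeR adjusted p = 0.0963), and DESeq2 gave an adjusted p of 0.0144. Per length, Pcna had 39.7 ± 16.5 FPKM in metastases and 14.2 ± 6.36 FPKM in normal lung (SD, n = 5 each). Lig1, the ligase that seals lagging-strand fragments, had 66.5, 58.3, 3.37, 93.5 and 49.9 CPM in metastases, against 6.92, 29.0, 6.54, 2.89 and 1.76 CPM in normal lung (2.53, edgeR adjusted p = 0.0510). Metastasis replicate 3 was the exception among the metastases, as it was for Mcm3 and Mcm5, and without it the adjusted p was 0.0153; without normal lung replicate 2 it was 0.0143.

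The other 4 loader genes did not pass the test, with log2 fold changes of -0.56 to 0.56. Rfc1, the large subunit of the loader, had 30.5, 57.3, 81.1, 61.0 and 107 CPM in metastases, against 76.0, 26.9, 46.7, 70.4 and 37.6 CPM in normal lung (0.39, edgeR adjusted p = 0.699). Rfc2 had 17.6, 4.16, 1.04, 9.73 and 14.7 CPM in metastases, against 15.7, 2.79, 10.7, 2.53 and 0.324 CPM in normal lung (0.56, edgeR adjusted p = 0.785). The authors' FPKM of Rfc2 ran the other way, at 2.54 ± 2.03 in metastases and 5.43 ± 5.11 in normal lung (SD, n = 5 each). Metastasis replicate 1, the highest by counts, held 0.122 FPKM. Exons of Rfc2 overlap those of Lat2 on the other strand, so its counts are uncertain. Rfc3 had 1.62, 3.61, 1.24, 4.47 and 4.69 CPM in metastases, against 0.0612, 0.0956, 4.92, 0 and 9.51 CPM in normal lung (0.10, edgeR adjusted p = 0.974). Normal lung libraries of Rfc3 lay both below and above every metastasis library. Rfc5 had 0.338, 17.6, 0.695, 21.1 and 5.71 CPM in metastases, against 3.84, 9.78, 7.84, 1.54 and 44.3 CPM in normal lung (-0.56, edgeR adjusted p = 0.784, and 2.10 after scaling to pan-endothelial genes). Its highest library was normal lung replicate 5. Exons of Rfc5 overlap those of Wsb2 on the other strand. Normal lung replicate 3, at 7.84 CPM, held 0.0329 FPKM of Rfc5, so its counts are uncertain too.

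The 3 subunits of RPA, which coats single-stranded DNA at forks and at breaks, overlapped between groups. Rpa1 had 17.1, 5.03, 5.06, 5.52 and 14.7 CPM in metastases, against 4.65, 13.4, 6.59, 43.7 and 17.5 CPM in normal lung (-0.86, edgeR adjusted p = 0.592, and 1.75 after scaling to pan-endothelial genes). The authors' FPKM of Rpa1 did not show this lower level, with 4.30 ± 2.58 in metastases and 4.10 ± 2.84 in normal lung (SD, n = 5 each). Normal lung replicate 4, highest by counts, held 4.51 FPKM, and normal lung replicate 5 held 8.79 FPKM. Rpa2 had 0.508, 26.2, 0.595, 4.33 and 29.4 CPM in metastases, against 15.0, 3.06, 0.212, 0.287 and 2.24 CPM in normal lung (1.55, edgeR adjusted p = 0.471). Rpa3 had 0.846, 12.8, 19.8, 11.8 and 25.9 CPM in metastases, against 0.643, 0.861, 13.2, 6.96 and 8.59 CPM in normal lung (1.24, edgeR adjusted p = 0.493). Metastasis replicate 5 was the one library of the 10 with more than 10 CPM of all 3 subunits.

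Ribonucleotide reductase makes the building blocks of DNA, and both subunits used in S phase rose. Rrm2, the small subunit, had 250, 90.0, 54.0, 254 and 239 CPM in metastasis replicates 1 to 5, against 2.91, 1.39, 2.42, 1.98 and 1.97 CPM in normal lung (log2 fold change 6.38 ± 0.67 SE, 83.1-fold, edgeR adjusted p = 3.82e-07). It had the smallest adjusted p of the members, and its lowest metastasis library was far above its highest normal library. In FPKM it averaged 74.0 ± 40.6 in metastases and 1.00 ± 0.222 in normal lung (SD, n = 5 each), the highest of the 53 genes in metastases. Rrm1, the large subunit, averaged 154 ± 56.6 CPM in metastases and 20.0 ± 14.8 CPM in normal lung (SD, n = 5 each; 2.94, edgeR adjusted p = 0.00146). Rrm2 lies on chromosome 12 at 24708254 to 24714146 and Rrm1 on chromosome 7 at 102441695 to 102469771 (GRCm38).

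Dut, the enzyme that keeps uracil out of DNA by destroying dUTP, averaged 58.5 ± 34.0 CPM in metastases and 7.45 ± 12.3 CPM in normal lung (SD, n = 5 each; 2.97, edgeR adjusted p = 0.0280). Normal lung replicate 1, with 29.4 CPM, lay above metastasis replicate 2; without it the log2 fold change was 4.86. The Dut call was lost without metastasis replicate 4 or 5 or normal lung replicate 2, 3, 4 or 5 (edgeR adjusted p 0.0561 to 0.0712). The enzymes of thymidylate supply did not pass the test. Tyms, which makes dTMP anew, had 8.36, 49.7, 2.93, 43.4 and 15.9 CPM in metastases, against 26.1, 1.70, 4.75, 3.94 and 8.80 CPM in normal lung (1.41, edgeR adjusted p = 0.359). Tk1, which salvages thymidine in S phase, had 44.6, 37.5, 57.6, 9.32 and 9.06 CPM in metastases, against 21.2, 3.13, 0.965, 24.1 and 0.702 CPM in normal lung (1.66, edgeR adjusted p = 0.280). The authors' FPKM gave another picture of Tk1: 54.5, 16.3, 9.64, 5.88 and 11.8 in metastases, against 0.876, 0.171, 0.129, 0.986 and 0.293 in normal lung, with no overlap (3.42 on the log2(FPKM + 1) scale, limma adjusted p = 0.00124). Exons of Tk1 overlap those of Afmid on the other strand, and whether reads were counted by strand is not stated, so the counts are uncertain.

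Of the proteins that restore chromatin and methylation behind the fork, Uhrf1 and Chaf1a rose. Uhrf1, which recognises half-methylated DNA and recruits the methyltransferase, had 99.6, 96.4, 38.2, 50.1 and 163 CPM in metastasis replicates 1 to 5, against 1.04, 2.98, 1.01, 1.30 and 0.864 CPM in normal lung (log2 fold change 5.95 ± 0.80 SE, edgeR adjusted p = 1.23e-05). Like Rrm2, it left a wide gap between the groups. Dnmt1, the maintenance methyltransferase that UHRF1 recruits, had the highest mean CPM of the group in metastases, with 242, 248, 134, 145 and 193 CPM in metastases, against 79.7, 99.0, 53.4, 162 and 58.9 CPM in normal lung (1.09 ± 0.45 SE, edgeR adjusted p = 0.0897). Normal lung replicate 4 exceeded metastasis replicates 3 and 4 in Dnmt1. Chaf1a, the large subunit of chromatin assembly factor 1, averaged 46.9 ± 58.4 CPM in metastases and 2.64 ± 4.17 CPM in normal lung (SD, n = 5 each; 4.15, edgeR adjusted p = 0.0156). Metastasis replicates 3 and 4 of Chaf1a lay within the normal range; without metastasis replicate 1, at 142 CPM, the log2 fold change was 3.10 and the adjusted p 0.0842, and without normal lung replicate 5 it was 5.89. Chaf1b, its partner, had 14.6, 0.520, 0.298, 15.4 and 14.8 CPM in metastases, against 13.2, 0.0359, 0.0941, 5.50 and 0.270 CPM in normal lung (1.25, edgeR adjusted p = 0.609), with libraries near 15 and libraries under 1 in the metastases.

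Of the 7 tested repair genes, 5 rose. Exo1, an exonuclease of mismatch repair and of break resection, had 33.1, 27.5, 14.4, 102 and 15.0 CPM in metastasis replicates 1 to 5, against 0.337, 0.538, 0.353, 0.339 and 0.324 CPM in normal lung (log2 fold change 6.65 ± 1.07 SE, edgeR adjusted p = 0.000112; 5.87 without metastasis replicate 4). Its normal lung libraries lay close together at a trace level. Blm, a helicase that dissolves recombination intermediates, averaged 53.5 ± 62.4 CPM in metastases and 0.672 ± 0.336 CPM in normal lung (SD, n = 5 each; 6.31, edgeR adjusted p = 0.00014; 5.27 without metastasis replicate 3, which held 163 CPM). Brca1, which directs breaks to homologous recombination, averaged 40.4 ± 37.8 CPM in metastases and 1.85 ± 1.39 CPM in normal lung (SD, n = 5 each; 4.44, edgeR adjusted p = 0.0049). The groups did not overlap for Exo1, Blm or Brca1.

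The Fanconi genes act at crosslinks that block forks. Fanca, of the core complex, averaged 40.8 ± 22.3 CPM in metastases and 0.565 ± 0.204 CPM in normal lung (SD, n = 5 each; 6.17, edgeR adjusted p = 0.000137). Its exons overlap Zfp276 on the other strand, whose own log2 fold change was 0.74. Metastasis replicate 3 held the highest level of Fanca by counts, 69.7 CPM, but only 1.03 FPKM in the authors' table. Replicate 4, with 50.4 CPM, held 13.8 FPKM there, so the counts of Fanca are uncertain. Fancd2 and Fanci encode a pair of proteins that the core complex marks with ubiquitin. Fancd2 did not pass the filter: it had 0.203, 12.6, 5.16, 21.3 and 69.0 CPM in metastases, against 0.245, 0.0837, 0.0706, 0.130 and 0.0810 CPM in normal lung. Metastasis replicate 1 alone was at the normal level, and with every counted gene tested the log2 fold change of Fancd2 was 7.36 (edgeR adjusted p = 0.00022). Fanci had 0.508, 61.0, 17.7, 12.1 and 42.3 CPM in metastases, against 4.49, 1.91, 0.871, 0.730 and 2.40 CPM in normal lung (3.68, edgeR adjusted p = 0.0232). Metastasis replicate 1 was again the low one, and the call of Fanci was lost without metastasis replicate 2 or 5 or normal lung replicate 3 or 4 (edgeR adjusted p 0.0561 to 0.0717). Its exons overlap Polg on the other strand. In the authors' table metastasis replicate 3 held 0.281 FPKM of Fanci, above the 0.0117 to 0.0978 FPKM of normal lung. Metastasis replicate 1, at 0.0785 FPKM, lay within that range.

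Brca2 and Msh6 were the tested repair genes that did not pass. Brca2, a gene of homologous recombination, had 10.7, 29.9, 45.4, 108 and 24.6 CPM in metastases, against 7.72, 18.6, 14.5, 7.62 and 31.7 CPM in normal lung (1.45, edgeR adjusted p = 0.217). Msh6, a mismatch sensor and the repair gene of highest mean CPM in metastases, had 5.62, 30.7, 171, 50.1 and 55.4 CPM there, against 10.6, 61.1, 64.7, 12.9 and 10.5 CPM in normal lung (0.97, edgeR adjusted p = 0.445). The lowest normal lung library still held 7.62 CPM of Brca2 and 10.5 CPM of Msh6.

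The E2F activators themselves were low and uneven. E2f1 had 27.3, 1.41, 0.546, 17.1 and 5.50 CPM in metastasis replicates 1 to 5, against 0.0306, 0.0837, 15.6, 0.261 and 0.378 CPM in normal lung (1.67, edgeR adjusted p = 0.490). Normal lung replicate 3 alone carried E2f1 at the level of the metastases, and without it the log2 fold change was 5.76 (edgeR adjusted p = 0.0234). E2f2 did not pass the filter: it had 0, 1.25, 0, 0.116 and 9.70 CPM in metastases, against 0.0612, 0.442, 0, 4.02 and 0.189 CPM in normal lung. With every counted gene tested, its log2 fold change was 1.13 (edgeR adjusted p = 0.692).

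The ratio of 2 genes within a library does not depend on how libraries are scaled, so 10 pairs were compared by a two-sided exact permutation test of each log2 ratio. None of the 10 passed after Benjamini-Hochberg adjustment over the pairs. A pair that was alone in reaching the smallest possible exact p could not pass, however far apart its groups lay. Rrm2b encodes the small reductase subunit that p53 induces outside S phase, and the log2 ratio of Rrm2 to Rrm2b was -0.60, 1.59, -0.83, 3.03 and 4.19 in metastasis replicates 1 to 5, against -5.01, -4.60, -4.76, -5.51 and -5.60 in normal lung. The difference of 6.57 had an exact p of 0.00794, the smallest that these groups can give, and an adjusted p of 0.0794; every metastasis library was above every normal one. Rrm2b itself had a log2 fold change of 0.53 (edgeR adjusted p = 0.655). The log2 ratio of Rrm2 to Rrm1 averaged 0.07 ± 1.52 in metastases and -2.90 ± 1.47 in normal lung (SD, n = 5 each; exact p = 0.0238, adjusted 0.119). In normal lung, that is, the large subunit was counted more than the small one in each library, and in metastases the order varied.

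The remaining ratios had wide spreads. Orc1 to Orc2 averaged -3.04 ± 2.87 in metastases and -0.23 ± 1.16 in normal lung on the log2 scale (SD, n = 5 each; exact p = 0.0476, adjusted 0.127). Brca1 to Brca2 averaged -0.43 ± 1.93 in metastases and -3.52 ± 1.85 in normal lung (exact p = 0.0556, adjusted 0.127), and Rfc4 to Rfc1 -1.64 ± 1.53 in metastases and -3.74 ± 1.42 in normal lung (exact p = 0.0635, adjusted 0.127). Within these pairs the direction of the mean difference followed the member that rose. The other 5 pairs (Tk1 to Tk2, Cdt1 to Gmnn, E2f1 to E2f4, E2f2 to E2f1 and Pole2 to Pole) had exact p-values of 0.190 or more. Tk2 is the mitochondrial thymidine kinase, geminin (Gmnn) the inhibitor of CDT1 and E2F4 an E2F that represses. Their own log2 fold changes were 1.66, 2.83 and 0.63, none past the edgeR threshold (adjusted p = 0.493, 0.0938 and 0.613).

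**Figure D4:**
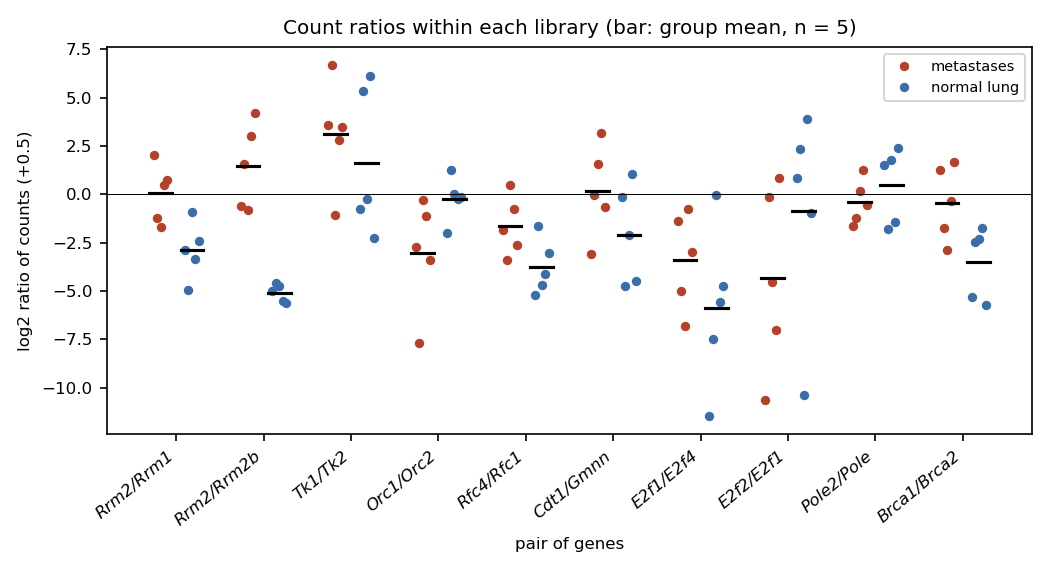
Log2 ratio of the counts of 2 genes within each library (y axis, 0.5 added to each count) for the 10 pairs (x axis), metastases left and normal lung right in each pair; bars mark group means of 5 libraries. The 5 metastasis points of Rrm2 to Rrm2b lie above all 5 normal lung points, and the groups of the other 9 pairs overlap.

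A wider list of 92 other genes of replication, repair and their control was examined in the same fit. Of its 83 tested genes, 19 rose and 0 fell by edgeR, where 12.0% of all tested genes rose and 8.22% fell. The median log2 fold change of the list was 1.02. The largest changes were those of Ticrr, E2f8 and Clspn. Ticrr, an activator of origin firing, had 105, 36.1, 403, 114 and 65.2 CPM in metastases, against 0.903, 1.66, 1.25, 1.46 and 1.38 CPM in normal lung (6.76 ± 0.78 SE, edgeR adjusted p = 1.69e-06). E2f8, an E2F that represses S-phase genes late in S phase, averaged 392 ± 134 CPM in metastases and 3.73 ± 0.903 CPM in normal lung (SD, n = 5 each; 6.72, edgeR adjusted p = 4.42e-09). Clspn, the adaptor of the replication checkpoint, averaged 89.4 ± 54.8 CPM in metastases and 0.878 ± 0.504 CPM in normal lung (6.67, edgeR adjusted p = 5.54e-06). The groups did not overlap for any of the 3.

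Genes of mitosis, the step that follows replication, were examined beside the members. Of 30 tested, 29 rose, with a median log2 fold change of 5.86, and their summed level was 3411 to 5917 CPM in metastases and 92.7 to 240 CPM in normal lung. Kif20a was the mitosis gene that did not pass (1.93, edgeR adjusted p = 0.220). The summed level of the 53 replication genes was 1917, 2235, 2743, 2767 and 2627 CPM in metastasis replicates 1 to 5, and 492 to 640 CPM in normal lung. The groups did not overlap in this sum. Metastasis replicate 1 held the lowest level of its group for 23 of the 53 genes and replicate 3 for 19, whereas replicate 3 also held the highest for 13. The common biological coefficient of variation, the estimated spread between replicates beyond counting error, was 1.01.

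**Figure D5:**
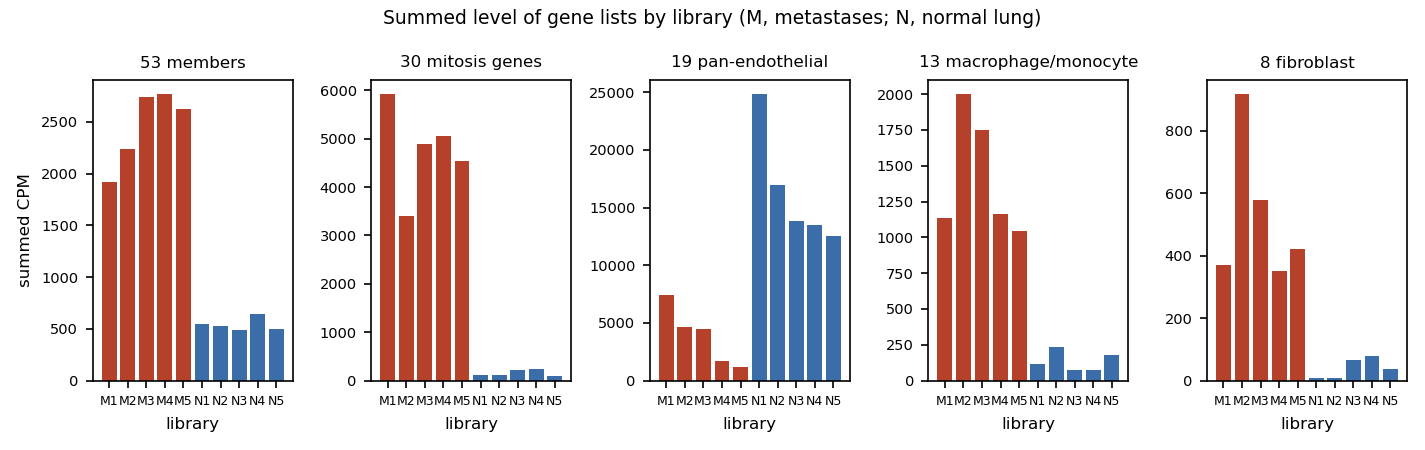
Summed CPM (y axis, from 0, a scale of its own in each panel) of the 53 replication and repair genes, 30 mitosis genes and 3 lists of cell type markers in each library (x axis; M1 to M5 metastases, N1 to N5 normal lung). The 53 genes sum to 1917 to 2767 CPM in metastases and 492 to 640 CPM in normal lung, and the endothelial markers run the other way.

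Markers of cell types moved between the same libraries. Of 19 pan-endothelial genes 16 fell, and their sum was 7461, 4686, 4478, 1704 and 1155 CPM in metastasis replicates 1 to 5 and 12496 to 24824 CPM in normal lung, on libraries scaled by all genes. Of 8 tested macrophage and monocyte genes 5 rose (summed level of the list of 13, 1047 to 1999 CPM in metastases and 70.6 to 237 CPM in normal lung). Of 7 tested fibroblast genes 5 rose (list of 8, 351 to 917 CPM in metastases and 6.69 to 78.8 CPM in normal lung), and both tested neutrophil genes rose (list of 5, 18.2 to 79.0 CPM in metastases and 0.0717 to 2.22 CPM in normal lung). Of 4 tested platelet and erythroid genes 2 rose (list of 6, 670 to 12105 CPM in metastases and 182 to 875 CPM in normal lung). Hbb-bs and Hba-a1, both globin genes, had no count in any library, but the authors' table gave Hbb-bs up to 13.7 FPKM in metastases and 15.9 FPKM in normal lung, and Hba-a1 up to 20.1 FPKM in metastases and 9.21 FPKM in normal lung. None of 3 tested lymphocyte genes passed, and of 5 tested pericyte and smooth muscle genes 1 fell.

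The epithelial list, which would mark lung epithelium or the tumour line, gave 1 gene higher and 1 lower among 4 tested, with sums of 22.4 to 72.8 CPM in metastases and 8.96 to 754 CPM in normal lung. Krt8, a keratin of simple epithelia and carcinomas, averaged 21.9 ± 13.8 CPM in metastases and 0.245 ± 0.0744 CPM in normal lung (SD, n = 5 each; 6.47, edgeR adjusted p = 0.000497), while Scgb1a1, of airway club cells, averaged 5.01 ± 1.49 CPM in metastases and 269 ± 360 CPM in normal lung (-5.74, edgeR adjusted p = 0.00245). Krt5 was at 0 in every library. The part of these other cells in the replication genes' levels was not tested.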

How the data were processed

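RNA of CD31+/CD45- cells was sequenced in 5 metastasis and 5 normal lung samples (Ovation RNA-Seq V2 libraries, paired reads of 100 bp, per the labels' protocols). The authors deposited raw counts per gene for each sample and 1 table of FPKM. TopHat2 2.0.13, Cufflinks 2.2.1, HTSeq 0.6.1, DESeq2 1.6.3 and the builds mm10 and GRCm38 are named, per the submitters' processing notes; annotation and strand use are not given in the sources here. Of the members, 21 share exon sequence with another gene of GENCODE M21, and in 14 of these that gene was matched by symbol in the deposited counts, so those counts are uncertain. Among the 21 are members that rose: Orc2, Cdc45, Gins2, Pole, Pole2, Fen1, Rfc4, Chaf1a, Fanca and Fanci. Reads assigned to no gene were 57.9 to 73.7% in metastases and 55.4 to 64.7% in normal lung, and stayed out of library sizes.

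Counts were filtered with filterByExpr (11823 of 24538 genes kept), scaled by TMM and compared with edgeR 4.0.16 in R 4.3.3 (robust quasi-likelihood F test, two-sided, no covariate, Benjamini-Hochberg adjustment over all tested genes, threshold 0.05). A log2 fold change sets metastases over normal lung; its SE is approximate, its absolute value divided by the root of F. The fit was also run on simulated counts with planted changes, which checks the code and says nothing of these samples. Within-library ratios (0.5 added to each count) were compared with exact permutation tests (scipy 1.17.1, Python 3.11.15), and figures drawn with matplotlib 3.10.9. Alternatives were DESeq2 1.42.0, limma 3.58.1 on log2(FPKM + 1) and log2(FPKM + 0.1), other scalings and filters, the replicate block, a threshold of 0.01, and libraries left out. Each deposited FPKM column matched its own sample's counts best (Spearman 0.956 to 0.963 across genes), and no samples were alike within counting error. Gene positions and promoters are from RefSeq (GRCm38.p6).

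The members, the wider lists and the alternatives were chosen with earlier results of these data known. In each role group, every library's value is given for the called member of largest log2 fold change, the member of highest mean CPM in metastases and each member that did not pass; for the wider list, the 3 largest called changes each way are named, and a marker list may give its 2 genes of highest CPM.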

Additional observations from a re-analysis of the deposited data

Results flagged for a closer look

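In 22 of 106 groups of 5 libraries (53 genes in each condition), 1 library stood apart from the other 4 by more than 0.710 of the group's whole range (Dixon's criterion). Chance flags about 1 in 20 groups of normally distributed values; CPM are skewed, and the share that chance flags in such values was not computed.

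Of the flags, 9 were in metastases and 6 of these in replicate 3. Metastasis replicate 3 was high for both subunits of polymerase epsilon, with 226.9 CPM of Pole and 256 CPM of Pole2, and for Prim1 at 150.3 CPM, Rfc4 at 113 CPM and Blm at 162.6 CPM. The same library was low for Mcm5, at 0.2481 CPM. Metastasis replicate 4 was high for Exo1 at 102 CPM, and metastasis replicate 5 for Mcm6 at 144.9 CPM and E2f2 at 9.695 CPM.

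The other 13 flags were in normal lung, each a library above the other 4. Normal lung replicate 1 was high for Rpa2 at 15.05 CPM and Dut at 29.4 CPM. Normal lung replicate 2 was high for Cdc6 at 10.4 CPM, Lig1 at 28.95 CPM, Uhrf1 at 2.976 CPM and Exo1 at 0.5379 CPM. Normal lung replicate 3 was high for Orc6 at 25.36 CPM, Pold2 at 0.6118 CPM and E2f1 at 15.55 CPM. Normal lung replicate 4 was high for Mcm5 at 4.016 CPM and E2f2 at 4.016 CPM, and normal lung replicate 5 for Rfc5 at 44.35 CPM and Chaf1a at 10.07 CPM. What set these libraries apart was not tested.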

How the results depend on the processing

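No member fell under any alternative. With 1 library left out, members called higher numbered 19 to 26, their median log2 fold change was 1.96 to 2.85 (1.96 without metastasis replicate 3), and 18 to 22 members did not overlap; genes called higher numbered 1302 to 1440, lower 792 to 1114, pathway genes higher 15 to 21 and mitosis genes 27 to 29. Scaling to pan-endothelial genes gave 6542 genes higher and 21 lower, 47 members and 65 pathway genes higher, a members' median of 5.42, and 0.068 for Pecam1 (edgeR adjusted p = 0.917). A threshold of 0.01 gave 869 genes higher, 453 lower and 15 members. Replicates 1 and 2 alone gave 487 genes higher, 201 lower, 3 members, 8 pathway and 19 mitosis genes, with 31 of 52 tested members not overlapping. Groups separate more easily with fewer libraries in each, so this 31 cannot be set beside the count from all libraries. The share of all tested genes without overlap was not computed for fits on fewer libraries. Without metastasis replicates 4 and 5, 15 members rose, and of all tested genes 1137 rose and 527 fell. DESeq2, limma on log2(FPKM + 1) and limma on log2(FPKM + 0.1) each called 1 pathway gene lower, where edgeR called 0; limma on log2(FPKM + 1) gave a members' median of 1.97. On FPKM + 0.1 the Rrm2 to Rrm2b ratio differed by 6.39 and Rfc4 to Rfc1 by 3.42 (exact permutation, adjusted p = 0.0397 each). In the shorter promoter window 13.3% of members held an E2F octamer. The causes were not tested.

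The labels do not say whether replicate numbers pair the samples. Same-numbered libraries had correlations of -0.008 to 0.177 of their deviations from the group means. Metastasis replicates 2 and 4 correlated best with the normal lung library of their own number, and replicates 1, 3 and 5 with another. Whether same-numbered samples shared a day was not tested. With the replicate block 23 members rose (22 of the 25, and Cdc6), the members' median was 3.07, and 1435 genes rose and 1180 fell.

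Depth was not equal: 3 counts amount to 0.0459 to 0.149 CPM in metastases and 0.0359 to 0.0810 CPM in normal lung. Levels near these limits, such as those of Gins1 and E2f2, rest on few counts. In normal lung replicates 1 to 5, Gins2 had 10, 9, 6, 5 and 1 counts and Mcm10 15, 11, 6, 7 and 2. Fancd2 had 16, 7, 3, 5 and 3 counts there. The size of the fold changes of these 3 genes is therefore uncertain.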
